A study of Bos taurus with 6 samples.

Results

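KIT_BOVIN, the bovine KIT receptor gene, was 1 of the genes in the authors' deposited table of 334 differentially methylated regions, with 1 region, on its promoter. The locus was taken as the gene range in that table (UMD3.1 chromosome 6, 71796318 to 71917431) with 100000 bp on each side, 321114 bp in all. KIT was chosen by the difference between the group means listed for its region, so the values of that region are a description and were not tested. Covered cytosines of the locus were divided into the promoter (1000 bp on each side of the lower-coordinate gene start), the rest of the gene range (gene body) and the flanks.

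Blood DNA of 6 adult male cattle was profiled by reduced representation bisulfite sequencing, which reads DNA next to MspI cut sites after bisulfite has turned unmethylated cytosines into uracil. Among the 3 Creole animals, Creole 1 was labelled Sanmartinero, while Creole 2 and Creole 3 shared the breed Costeno con Cuernos. The 3 Spanish animals were of different breeds: Spanish 1 a Retinta, Spanish 2 of the breed Asturiana de los Valles and Spanish 3 of the Lidia breed. Each animal gave 1 library, and no treatment is named in the labels. The design asks whether blood methylation differs between Creole cattle of the American tropics and Iberian breeds. Per the labels, different DNA extraction kits served the Creole and the Spanish samples, so kit and group cannot be told apart. The lane mark of the samples also coincided with the group and cannot be told apart from it either. The labelled tissue was not checked against marker genes, which would need an annotation of UMD3.1.

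KIT encodes the receptor tyrosine kinase for stem cell factor, the product of KITLG. It is needed by blood stem and progenitor cells, mast cells, melanocytes and germ cells, and variants at KIT underlie several white and colour-sided coat patterns in cattle. Promoters that lie in CpG islands are commonly unmethylated in blood cells, whether or not the gene is active, while bodies of genes are commonly methylated. In whole blood, a methylation level of a cytosine is a share of reads over all cell types together, so more methylated cells of 1 type and a partial level in all cells cannot be told apart.

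Total read calls per library were 40986296 to 84537374. With at least 10 calls required per cytosine, the locus held 42, 18 and 6 cytosines in the libraries Creole 1 to Creole 3, and 66, 40 and 28 in Spanish 1 to Spanish 3. These were 116 positions, of which 61 were measured in 1 library only and 0 in all 6. Of 322 windows of 1000 bp, 14 held such a cytosine in any library, and of 3212 bins of 100 bp, 31 did. Creole 2 and Creole 3 had 0 calls at any depth in the promoter, so every promoter value of the Creole group comes from Creole 1.

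The KIT promoter was almost free of methylation in each of the 4 libraries that covered it. The mean over promoter cytosines with at least 10 calls was 7.69% in Creole 1 (13 cytosines), 1.22% in Spanish 1 (50 cytosines), 0.0% in Spanish 2 (24 cytosines) and 0.0% in Spanish 3 (20 cytosines). These means come from different stretches. They lay 596 to 743 bp after the gene start in Creole 1 and 369 to 730 bp after it in Spanish 2. In Spanish 1 and Spanish 3 they lay between 134 bp before and 219 bp after it. The Creole 1 mean thus leaves out the listed region and the gene start, where Creole 1 had fewer than 10 calls per cytosine. Every covered promoter cytosine lay in the CpG island that the authors' deposited table gives for the region (71795926 to 71797516). Counting calls at any depth, Creole 1 had 34 methylated of 411 calls, Spanish 1 had 31 of 1235, Spanish 2 had 0 of 627 and Spanish 3 had 1 of 1362. The 0 of 627 calls in Spanish 2 allow a share of up to 0.478%, taking the limit at 3 calls of the total, as for every count of 0 given a limit here. In bins of 100 bp, 15 of the 17 library values of the promoter were 0.0%.

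**Figure D1:**
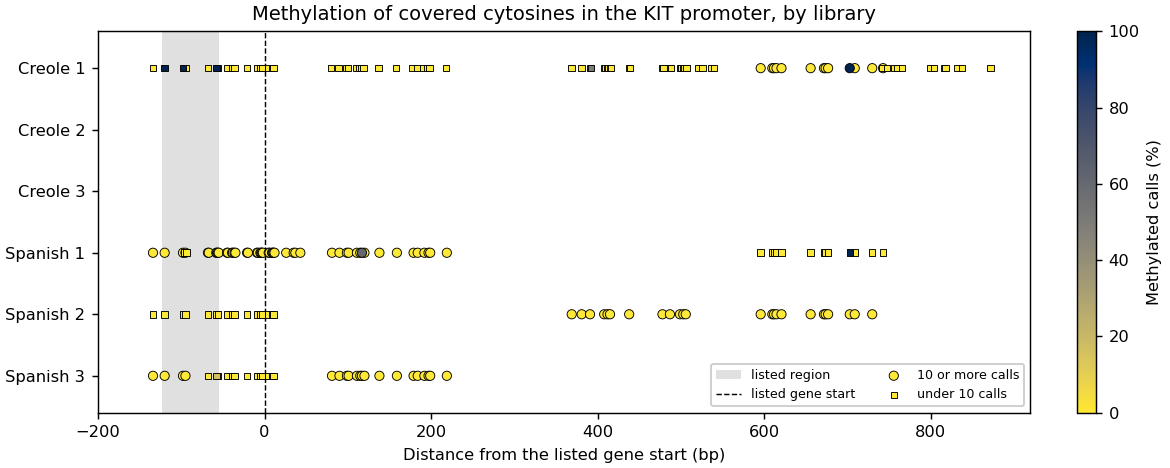
Methylation of each covered cytosine (colour, percent of calls) against its distance from the listed gene start in bp, with 1 row per library; circles have at least 10 calls and squares fewer, and the grey band is the listed region. Nearly all marks are at 0% and the rows of Creole 2 and Creole 3 are empty.

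Methylated calls in the promoter were confined to 6 of the 119 positions covered in any library. Of these, 3 lay in the listed region and 3 outside it. Creole 1 and the Spanish libraries had 42 promoter positions in common, at any depth. At 38 of these both sides read 0%, at 2 only Creole 1 had methylated calls, and at 2 both sides had some. Creole 1 and the Spanish libraries thus differed at single cytosines, with stretches at 0% around them.

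The listed region spans 63 bp (71796198 to 71796260) and ends 58 bp before the gene start. The authors' deposited table gives it 5 CpGs and means of 59% in Creole and 9% in Spanish animals. Creole 1 had 5 calls at each of the 5 cytosines, 25 in all. In Creole 1 the cytosines 120, 98 and 58 bp before the gene start were methylated in 5 of 5 calls each, and those 95 and 68 bp before it in 0 of 5. The listed region starts and ends on positions where Creole 1 was methylated in all its calls. Summed over the region, Creole 1 read 60.0% (95% Wilson interval 40.7 to 76.6%).

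Spanish 1 had 0 methylated calls of 107 in the listed region, which allows a share of up to 2.80%. Spanish 2 had 0 of 45, which allows up to 6.67%. Spanish 3 had 1 of 44 (2.27%, Wilson interval 0.402 to 11.8%), and that call fell on the cytosine 58 bp before the gene start, where it had 6 calls. The 3 Spanish libraries together had a mean of 0.758% ± 1.31 (SD, n = 3), 59.2 points below Creole 1 alone. No Spanish library reached the deposited Spanish mean of 9%, and the deposited difference between the groups was 50 points. The reason for this disagreement was not tested. The intervals and limits cover counting error only: calls summed over cytosines can share a read, and PCR copies are not separate molecules.

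**Figure D2:**
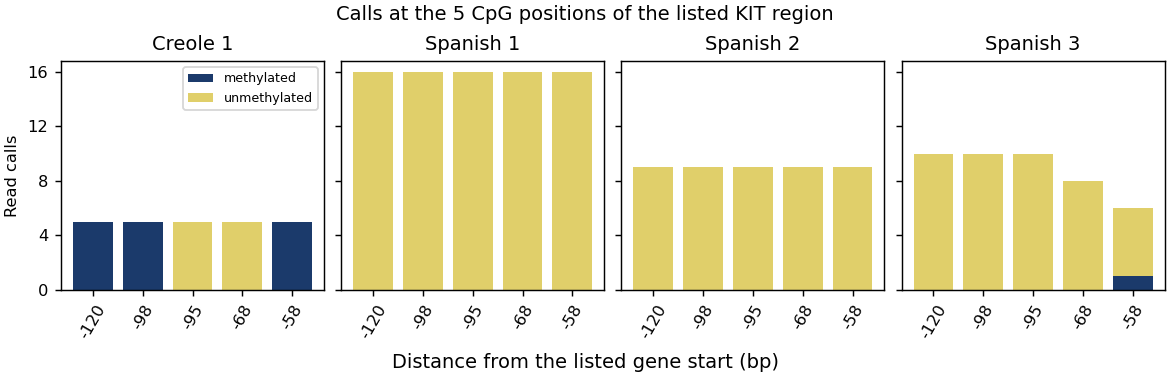
Methylated (dark) and unmethylated (light) read calls at the 5 CpG positions of the listed region, by distance from the listed gene start in bp, in the 4 libraries that covered it. Creole 1 has 5 calls per position, all methylated at 3 positions and none at the other two.

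No cytosine of the listed region had 10 calls in any Creole library. In the continuous stretch of covered cytosines that contains the region (71796184 to 71796329), Creole 1 had 17 cytosines with 4 to 5 calls each. Outside the listed region, 12 of those 17 cytosines together had 0 methylated calls of 58. The Spanish libraries also had 0 methylated calls in that outer part, of 373 calls in Spanish 1, 108 in Spanish 2 and 87 in Spanish 3. Among all 334 listed regions, 25 (7.49%) had no cytosine with 10 calls in any Creole library, and 2 of the 15 listed on a promoter. The highest number of calls at a single Creole cytosine was 5 in the KIT region against a median of 37.5 over all listed regions, and 6 regions, KIT included, had 5 or fewer.

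Beyond the listed region, 2 other promoter cytosines read methylated in a library with at least 10 calls. At position 71797021, 703 bp after the gene start, Creole 1 had 18 of 18 methylated calls (Wilson interval 82.4 to 100%), while the 12 other cytosines of that stretch with at least 10 calls had 0 of 18 each. Spanish 1 also read methylated there, in 9 of 9 calls (Wilson interval 70.1 to 100%), and Spanish 2 in 0 of 22 (up to 13.6%). The methylated state of this cytosine was thus seen in 1 animal of each group. At position 71796435, 117 bp after the gene start, Spanish 1 had 22 of 36 methylated calls (61.1%, Wilson interval 44.9 to 75.2%) and Spanish 3 had 0 of 77 (up to 3.90%). The remaining position, 71796710, had 1 methylated call of 2 in Creole 1.

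Lone methylated cytosines like the one at 71797021 in Creole 1 were uncommon but present in every library. They were counted genome-wide among cytosines with 10 or more others within 100 bp that together were methylated in under 1% of calls, at a minimum of 10 calls. Of such cytosines, those with at least 90% methylation made up 0.306% in Creole 1 (554 of 180968), and 0.542% to 0.720% in the other 5 libraries. The cytosine at 71796435 in Spanish 1, at 61.1%, fell below the 90%, and those of the listed region had fewer than 10 calls in Creole 1. The genome-wide count was added after the promoter values were seen and is a description.

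The gene body was measured at 5 cytosines between 71850899 and 71851009, where 4 libraries had at least 10 calls. Their mean was 90% in Creole 1 and 100% in Creole 2, Spanish 2 and Spanish 3. The 4 lower-coordinate cytosines read 100% in all 4 libraries, on 15 to 65 calls each. The last, at 71851009, read 50% in Creole 1 (16 calls) and 100% in the other three. At any depth, the gene body had 17 methylated of 25 calls in Creole 3 (68.0%), with 2 of 2 at each of these 5 cytosines and 0 of 8 at 71902673. Creole 1 had 116 of 139 (83.5%), with 0 of 6 at both 71883770 and 71883776. The gene range of 121114 bp in the authors' deposited table is longer than the 87358 bp of KIT in the RefSeq annotation of ARS-UCD2.0. The positions given above with 0 of 6 and 0 of 8 calls lie 87452, 87458 and 106355 bp after the gene start, beyond 87358 bp. UMD3.1 was not aligned with ARS-UCD2.0, so whether these positions lie inside KIT was not determined. The stretch from 71850899 to 71851009 lies 54581 to 54691 bp after the gene start. In the RefSeq annotation the neighbours of KIT are PDGFRA and KDR, which also encode receptor tyrosine kinases.

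In the flanks, the libraries Creole 1 to Creole 3 had means of 71.6%, 53.8% and 33.3%, and Spanish 1 to Spanish 3 means of 79.8%, 67.0% and 56.7%, over 3 to 24 cytosines. The promoter was lower than the flanks in 4 of 4 libraries, by a mean difference of -66.6 points ± 9.13 (SD, n = 4, exact sign-flip permutation test p = 0.125, adjusted p = 0.188 over 3 comparisons). It was lower than the gene body in 3 of 3 libraries, by a mean difference of -94.1 points ± 10.2 (SD, n = 3, exact permutation p = 0.25, adjusted p = 0.25). The gene body was above the flanks in 4 of 4 libraries, by 35.2 points ± 12.6 (SD, n = 4, exact permutation p = 0.125, adjusted p = 0.188). These two-sided p-values are the smallest that 4 and 3 libraries allow, so the design could not reach 0.05. The last difference depended on where the promoter ends: with 500 bp on each side, part of the island fell in the gene body and the difference was 1.93 points (exact permutation p = 0.75).

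**Figure D3:**
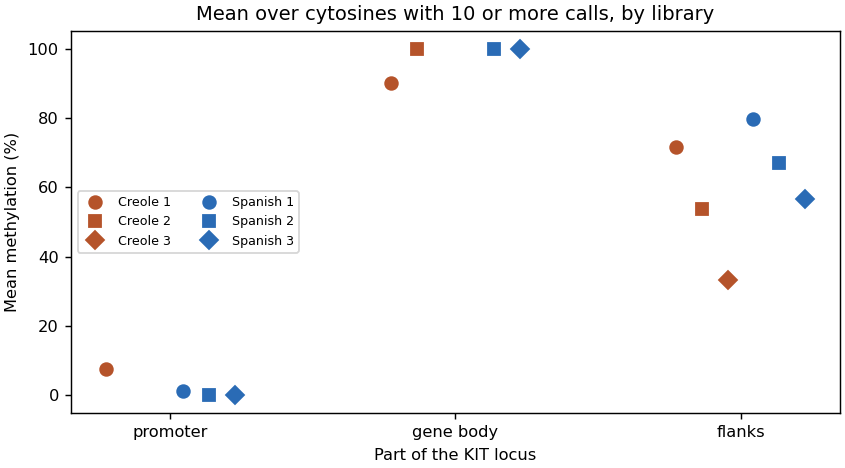
Mean methylation in percent over cytosines with at least 10 calls, for each library, in the promoter, gene body and flanks of the KIT locus; each point is 1 library. Promoter points lie between 0.0% and 7.69%, gene body points between 90% and 100%, and flank points between 33.3% and 79.8%.

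Outside the promoter, 23 positions had at least 10 calls in 2 or more libraries. At 10 of them every call in every library was methylated, at 4 every call was unmethylated, and at 9 calls or libraries differed. All 4 positions that read 0% throughout (71710078, 71773287, 71953489 and 72011404) were the outermost covered CpG of their stretch in each library that measured them. The adjacent position, taken as the other strand of the same CpG, read methylated where it was covered. At 72011403 Spanish 1 had 12 of 12 methylated calls, against 0 of 260 at 72011404. Creole 1 had 4 of 4 and Spanish 3 had 3 of 3 at 72011403. Creole 1 had 4 of 4 at 71710079, and Spanish 1 had 2 of 2 at 71773288. No such adjacent position was covered at 71953489. Another 7 positions were also outermost in each library that measured them, and read 91.4% to 100% over all their calls. The labels' protocol fills in the ends left by MspI, and the part of that step in these 4 positions was not tested. Without the outermost CpGs of each stretch, the difference between promoter and flanks was -80.7 points.

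The widest spread between animals in the flanks lay at 3 positions. At 71710040 and 71710045, Creole 1, Creole 2 and Spanish 2 read 100% on 21 to 48 calls, and Creole 3 read 0% on 90 calls at each (up to 3.33%). In Creole 3 the neighbouring cytosine at 71709966 was methylated in 90 of 90 calls, as in the other 3 libraries that measured it. At 71784078, 12240 bp before the gene start, Creole 1 read 16.9% (59 calls), Creole 2 read 100% (15 calls) and Creole 3 read 0.0% (18 calls). Spanish 2 read 37.1% (35 calls) there and Spanish 3 read 70.0% (10 calls). The Creole libraries took both the lowest and the highest value there, with the Spanish libraries between them. At 71773153 the groups also overlapped, since Creole 1 read 82.7%, Spanish 1 read 81.4%, and Creole 2, Spanish 2 and Spanish 3 all read 100%.

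**Figure D4:**
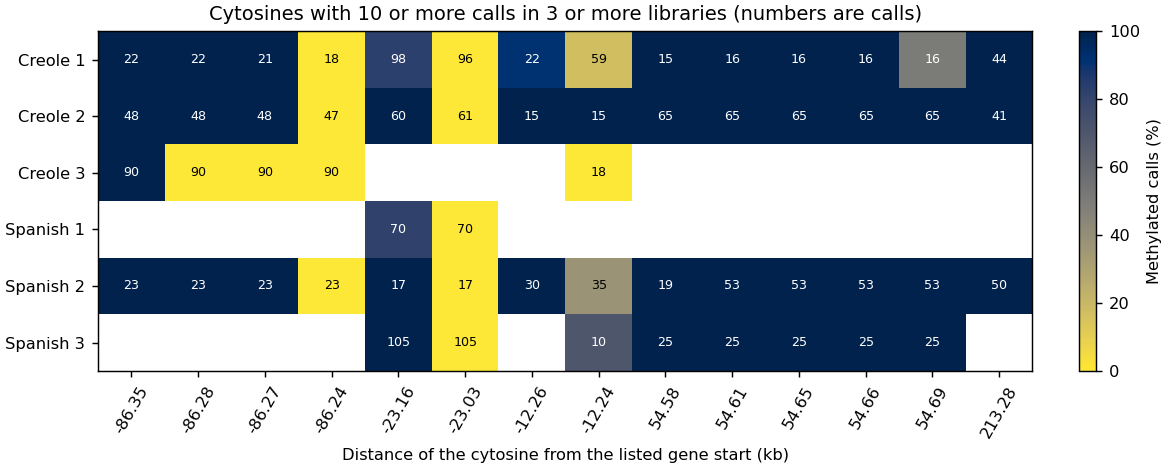
Methylation (colour, percent of calls) of the 14 cytosines with at least 10 calls in 3 or more libraries, ordered by distance from the listed gene start in kb; numbers are calls and white cells are not measured. Creole 3 stands apart at 2 of the cytosines farthest before the gene start, and the last cytosine before the gene start differs among all 5 libraries that measured it.

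Most values of the locus were all or none. Of 200 library values at single cytosines with at least 10 calls, 126 were 0%, 59 were 100% and 15 lay between. Shares at 0% or 100% were 76.2% in Creole 1 and 95.5% to 100% in the other 5 libraries at the locus, against 68.6% in Creole 1 and 87.2% to 91.7% in the others over all chromosomes. Creole 1 held 10 of the 15 intermediate values. It had the most calls in total but the lowest median per covered cytosine genome-wide, 8 calls against 10 to 19 in the other 5 libraries.

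Over the locus without the listed region, Creole libraries had a mean level of 51.3% ± 16.8 (SD, n = 3) and Spanish libraries of 26.7% ± 4.31 (SD, n = 3), 24.7 points apart (exact two-sided permutation test p = 0.10, the smallest that 3 against 3 allows). Creole libraries read 54.0%, 66.7% and 33.3%, and Spanish libraries 22.3%, 30.9% and 26.8%, with no overlap. The groups did not cover the same parts: outside the listed region, 85 of the 125 Spanish values came from the promoter and 13 of the 66 Creole values. Within the flanks the order was the other way, with Creole libraries at 52.9% ± 19.2 (SD, n = 3) and Spanish libraries at 67.8% ± 11.6 (SD, n = 3) and overlapping (exact permutation p = 0.40). Over the 8 cytosines that at least 2 Creole and at least 2 Spanish libraries measured, Creole libraries read 68.7%, 87.5% and 0.0%, and Spanish libraries 40.7%, 79.6% and 83.8% (exact permutation p = 0.70). Of these 8, Spanish 1 had 2 and Creole 3 had 1, while the other 4 libraries had all 8. With calls pooled the locus-wide difference was 13.2 points and with flanks of 50000 bp 41.0 points, and the groups overlapped with calls pooled, at a minimum of 20 calls and without the outermost CpGs (exact permutation p = 0.40 each). The 24.7 points also did not hold within the flanks or over the cytosines that the groups had in common.

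**Figure D5:**
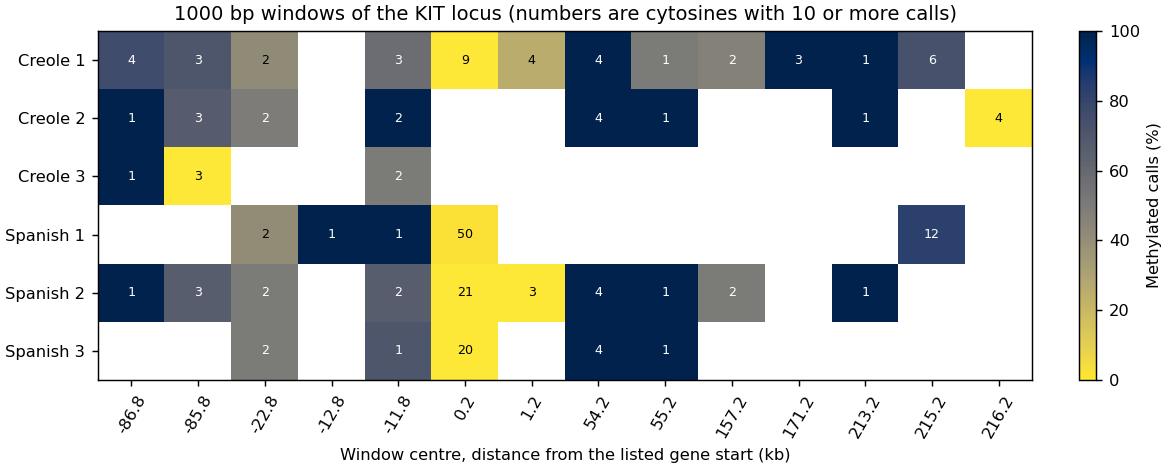
Methylation (colour, percent of calls) of the 14 measured windows of 1000 bp, ordered by the distance of their centre from the listed gene start in kb, with 1 row per library; numbers are cytosines and white cells are not measured. The windows at 0.2 and 1.2 kb hold the promoter and are at or near 0%, apart from 25.0% in Creole 1 at 1.2 kb.

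Bins were tested genome-wide where at least 2 libraries per group had the required calls at the same cytosines. In the KIT locus 1 window of 1000 bp could be tested, in the gene body (71850001 to 71851000), and 6 bins of 100 bp. By edgeR's quasi-likelihood test 0 of the 1 window and 0 of the 6 bins passed an adjusted p of 0.05 (adjusted p = 1 for each). The window read 100% in each library with at least 10 calls there, as did the bins starting at 71850801 and 71850901. The bin starting at 71773201 read 0% in each, so the tests of this window and these bins could not show a difference. Genome-wide, 0.0% of 15646 windows and 0.0% of 44035 bins passed. At an unadjusted p under 0.05, 0 of the locus's window and bins stood against 635 windows (4.06%) and 919 bins (2.09%) genome-wide. The likelihood ratio test called 0 in the locus and 2.68% of windows and 2.45% of bins genome-wide, and limma called 0.0% of both. With at least 2 libraries per group required, the promoter held no testable bin, since 1 Creole library covered it. Promoter windows and bins entered only where 1 library per group was enough, with Creole 1 as the sole Creole library.

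Across the deposited table, the named regions most like KIT in level were sought among the 24 that had at least 10 calls in the same 4 libraries (Creole 1 and the 3 Spanish libraries). Levels in Creole 2 and Creole 3 did not enter, so the Creole side of the likeness is Creole 1 alone. The table lists regions for a difference between the groups, and 236 of its 334 regions are higher in Creole. The nearest was TPPC2_BOVIN, a subunit of the TRAPP trafficking complex (X chromosome), where Creole 1 read 65.9% and each Spanish library 0.0%, a mean absolute difference from KIT of 2.04 points. ZNT4_BOVIN, a zinc transporter whose region is also listed on a promoter, read 47.5% in Creole 1. PPIC_BOVIN, a cyclophilin, read 46.7%, and SOCS2_BOVIN, a suppressor of cytokine signalling, read 77.8% in Creole 1. The Spanish libraries read 0.0% at these 3 genes. Of 51 genes listed as KIT ligand and signalling partners, related receptors, pigmentation genes and blood lineage factors, among them KITLG, PDGFRA, MITF, MC1R and GATA2, 0 had a region in the authors' deposited table under their symbol or UniProt entry name. That count concerns names only, since 127 of the 334 regions carry such a name. The share over all genes was not counted, so 0 of 51 says nothing about these genes as a set.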

How the data were processed

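The deposited coverage files hold counts of methylated calls and counts of unmethylated calls per CpG cytosine, strands apart and not normalized. The percent column deposited beside them was recomputed from the counts. Per the submitters' processing notes, Trim Galore, Bismark and methylKit are named, with the build UMD3.1. The region caller was not given in the sources used here, nor were tool settings and duplicate removal. The authors' deposited table gives group means as a fraction (printed as percent), their difference and a score, which was not used. It holds 0 columns of single samples.

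Levels are means over cytosines with at least 10 calls, each weighted equally, unless said otherwise. The listed region was summed over its calls at any depth. Groups come from the breed labels. Bins were fitted with edgeR 4.0.16 in R 4.3.3 (quasi-likelihood F test on both counts, library effects, no dispersion trend, Benjamini-Hochberg over all bins; at least 3 cytosines per window of 1000 bp and 1 per bin of 100 bp), with the likelihood ratio test and limma 3.58.1 (2 added to each count) as alternatives, and tested on simulated data. Other tables used Python 3.11.15, numpy 2.4.6, pandas 2.3.3, scipy 1.17.1 and matplotlib 3.10.9. Other alternatives changed the read minimum, weighting, strands, promoter and flank size, grid, library requirement or libraries, or removed the outermost CpGs of covered stretches (split at gaps over 150 bp). The regions most like KIT were the 5 named ones with the smallest mean absolute difference over the libraries measured there; 1 of them is not reported here. KIT and the gene list were chosen with earlier results of these data known. p-values measure the spread between these animals.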

Additional observations from a re-analysis of the deposited data

How the results depend on the processing

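Of 83 alternatives over 7 results, 79 kept the direction and the side of the threshold. The permutation tests could not reach 0.05 at their number of libraries, except for gene body minus flanks at a minimum of 5 calls, given below. The listed region has no test. This count therefore says little of stability. The locus-wide difference of 24.7 points (Creole minus Spanish) reversed in 3 alternatives chosen after seeing the data: it was -14.9 points in the flanks alone, -5.0 points in the gene body alone and -16.0 points over cytosines measured in 2 or more libraries of each group. These hold fewer or other cytosines by construction. The gene body exceeded the flanks by 25.1 points at a minimum of 5 calls, where all 6 libraries entered. The unadjusted exact permutation p was 0.0312 in that setting. Creole 3 and Spanish 1 entered the gene body there only through 71902535 and 71902673, 106217 and 106355 bp after the gene start. Creole 3 had 7 of 7 and 0 of 8 methylated calls at these positions, and Spanish 1 had 6 of 6 at each. Leaving out each library in turn gave -100.0 to -91.2 points for promoter minus gene body (-63.2 with 500 bp on each side as promoter), -69.9 to -62.5 for promoter minus flanks, 31.6 to 40.8 for gene body minus flanks, 17.0 to 33.7 for the locus-wide difference (13.2 with calls pooled, 41.0 with flanks of 50000 bp), and 58.9 to 60.0 for the listed region, which Creole 2 and Creole 3 do not cover. Without Creole 1, or with 10 calls per cytosine, the listed region had no Creole value. No cytosine had 10 calls in all 6 libraries, so that setting gave no value for the locus. Every bin setting that could be run called 0 in the locus. The window and some of the bins tested in the main setting held calls of 1 kind only, so they could not be called. No paired analysis was possible because the replicate numbers only follow the order of the samples.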
